A study of Mus musculus with 84 samples.

Results

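The genes described here are 52 enzymes with which the liver breaks down amino acids. They were taken as a list of named genes, set out by the amino acid or the step they serve. The deposited tables hold 48794 genes, of which 15964 passed the filter on low values in liver, and 51 of the 52 enzymes were among these. The exception was Tdh, threonine dehydrogenase, which did not exceed 0.04 TPM in any liver library.

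Livers and epididymal white adipose tissue (eWAT) came from male C57BL/6J mice made obese on a diet with 60% of its energy as fat, here called DIO mice. All groups ate this diet, and a lean group is not part of the comparisons. Dosing began at an age of 22 weeks and went on for 30 days with 1 subcutaneous injection a day. Each of the 7 groups gave 6 libraries per tissue, 1 mouse each, from the 11 mice randomised to it. The groups were vehicle, BI 456906 at 3, 10, 20 or 30 nmol/kg, and semaglutide at 20 or 100 nmol/kg, which the labels also call EX10970. BI 456906 is an acylated peptide agonist of both the GLP-1 receptor (GLP-1R) and the glucagon receptor (GCGR), and semaglutide is an acylated agonist of the GLP-1R. The comparison with semaglutide sets a peptide that acts on both receptors beside a peptide that acts on the GLP-1R.

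The liver removes the amino group of most amino acids, passes the nitrogen to glutamate, ammonia and urea, and sends the carbon skeletons to glucose, ketone bodies or the citric acid cycle. Glucagon is known to favour this breakdown in hepatocytes, where its receptor is abundant and signals through cyclic AMP. Branched-chain amino acids are an exception, since their first transamination takes place mainly outside the liver and the hepatocyte takes up their keto acids.

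Libraries held 21676902 to 53869104 recovered reads in liver, the shallowest being semaglutide 20 nmol/kg replicate 77. The sum over 9 hepatocyte markers was 106095 to 121058 TPM under vehicle and 120986 to 132303 TPM at 30 nmol/kg of BI 456906. TPM is a length-normalized abundance, relative to the rest of its library. At that dose 5 of 6 stellate cell and fibroblast markers were called lower (171 to 342 against 147 to 225 TPM in sum), as was 1 of 6 macrophage markers. Also called lower were 3 of 5 cholangiocyte markers (37.3 to 168 against 16.97 to 57.4 TPM in sum). Spp1 makes up most of this last sum, with a mean of 75.2 TPM under vehicle beside 3.3 TPM for Sox9 and 2.98 TPM for Krt19. Of 5 endothelial markers 1 was higher and 1 lower, of 9 hepatocyte markers 6 were higher and 3 lower, and the 5 lymphocyte markers summed to 2 to 6.84 TPM under vehicle and 2.76 to 4.37 TPM at that dose. The 5 kidney and pancreas markers summed to at most 0.94 TPM in the vehicle, 30 nmol/kg and semaglutide 100 nmol/kg libraries. The 5 adipocyte markers summed to 33.6 to 166 TPM under vehicle, 9.33 to 97.6 TPM at 30 nmol/kg and 21.4 to 140.5 TPM with semaglutide at 100 nmol/kg. Only Cidec of that list was tested, a lipid droplet gene that fatty hepatocytes also express, and it was called lower at 30 nmol/kg (-1.52, FDR = 0.00717) and with semaglutide at 100 nmol/kg (-1.57, FDR = 0.00763). Adipoq, which defines adipocytes, reached at most 0.53 TPM in these groups. In bulk tissue, fewer cells of a type and less RNA per cell cannot be told apart, and the part of cell composition in the results was not tested.

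At 30 nmol/kg of BI 456906 the enzymes moved in both directions. Called means an FDR of at most 0.05, the FDR being the Benjamini-Hochberg adjusted p of limma/voom over all 15964 genes. Log2 changes are log2 fold changes of limma/voom. Tat, Got1, Sds, Sdsl, Cbs, Aass, Gls2 and Tdo2 were higher by at least 1 on this scale, and Ddah1 was lower by more than 1. Of the 51 enzymes, 17 (33.3%) were called higher and 17 (33.3%) lower, beside 28.9% and 29.9% of all genes. With a log2 fold change of at least 1 in size as well, 8 enzymes were higher (15.7%) and 1 lower (1.96%), beside 5.99% and 6.9% of all genes. Among these, the paper had already reported rises of Sds, Got1 and Gls2 and a fall of Ddah1 with dose in these livers. The list is therefore not independent of these data. In 16 enzymes all 6 TPM values at 30 nmol/kg lay above the 6 of vehicle, and in 12 they lay below, where 18.6% and 10.8% of all genes did so. The median log2 fold change was 0.01 over the enzymes and -0.03 over all genes.

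**Figure D1:**
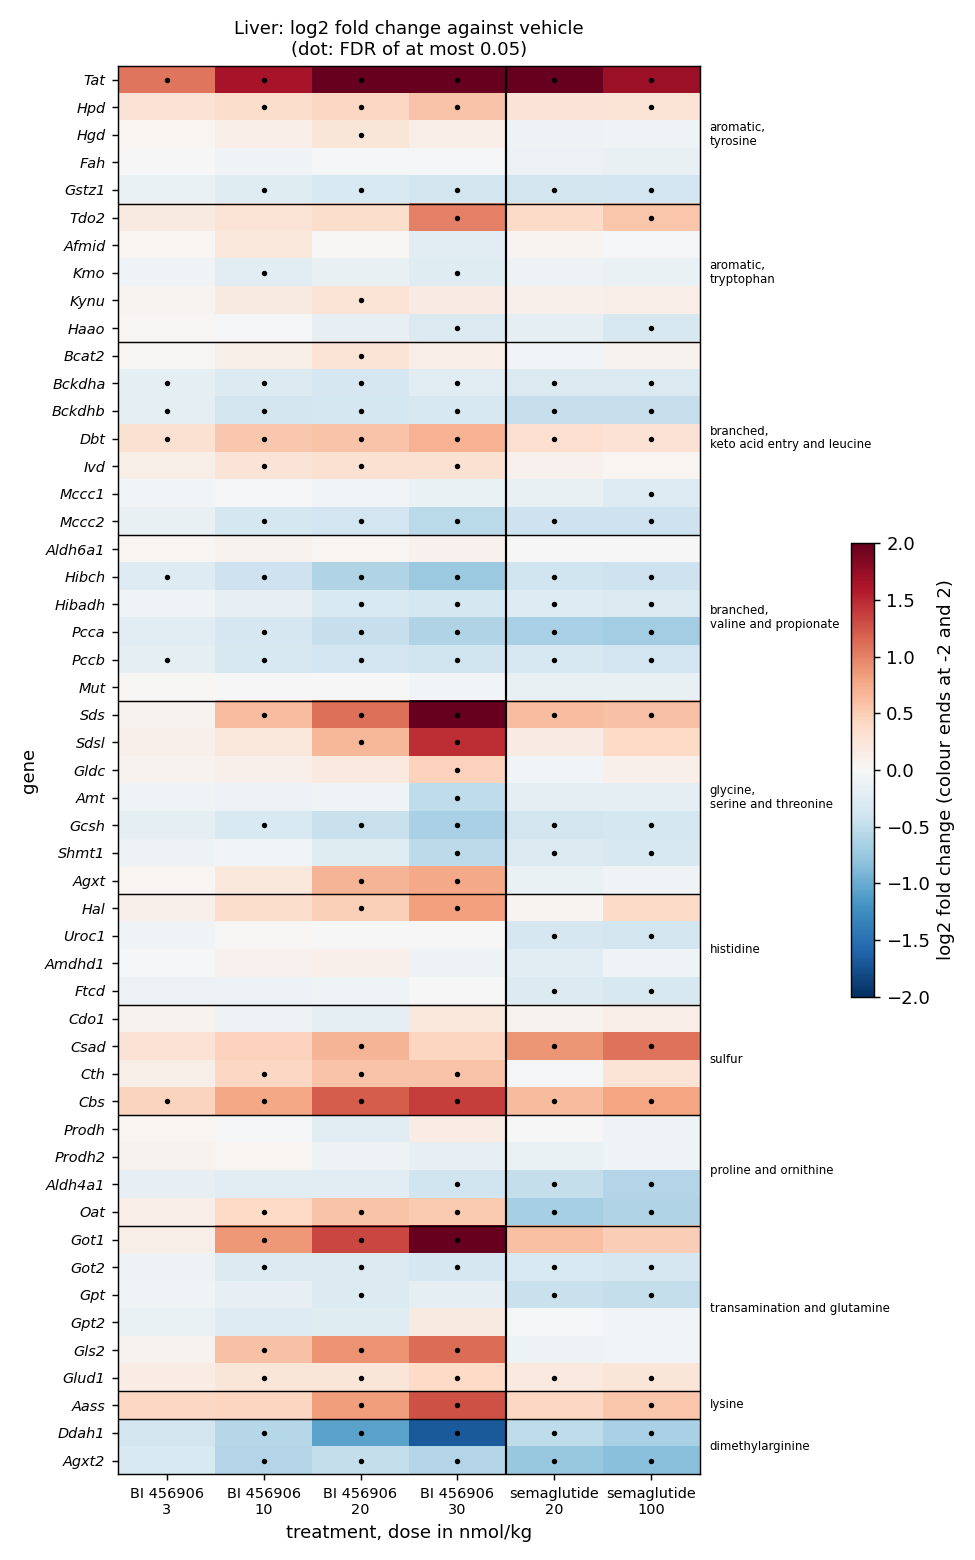
Log2 fold change against vehicle (colour, limma/voom, ending at 2 in size) of the 51 tested enzymes, ordered by route, in the 4 BI 456906 and 2 semaglutide groups of 6 mice. Dots mark an FDR of at most 0.05, and the 30 nmol/kg column holds 17 dots in each direction.

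Fewer enzymes were called at 3 nmol/kg than at the other doses. At 3 nmol/kg, 3 enzymes were called higher (Tat, Cbs and Dbt) and 4 lower (Hibch, Pccb, Bckdhb and Bckdha), beside 8.46% and 4.93% of all genes. At 10 nmol/kg the numbers were 11 and 12, beside 19.4% and 18.1%, and at 20 nmol/kg 19 and 13, beside 23% and 22.9%. From 20 to 30 nmol/kg the number called higher went from 19 to 17 and the number called lower from 13 to 17. Over the linear dose contrast from vehicle to 30 nmol/kg, 20 enzymes rose and 19 fell, beside 29.3% and 29.6% of all genes. The calls at 3 nmol/kg are the least firm. With only vehicle and this dose in the fit, 0 enzymes were called in either direction. Of all genes, 1 was then called higher and 2 lower. In the fit of all groups without vehicle replicate 48, 0 enzymes were called lower at 3 nmol/kg.

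Added over the 52 enzymes, the TPM were 12273, 13779 and 14072 (lowest, median and highest of 6 mice) under vehicle and 19381, 20695 and 21316 at 30 nmol/kg of BI 456906. With semaglutide at 100 nmol/kg they were 13130.0, 16504 and 17338. The sums at 30 nmol/kg lay above every vehicle sum and above every sum at semaglutide 100 nmol/kg. A few abundant transcripts carry this sum, among them Tat, Hpd, Tdo2 and Cdo1.

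The first steps of the aromatic amino acids were among the rises, while later steps were mixed. Tat, tyrosine aminotransferase (ENSMUSG00000001670, chr8:109990437-109999803, GRCm38), opens tyrosine breakdown. It measured 285, 345 and 548 TPM (again lowest, median and highest, as below) under vehicle and 2118, 3005 and 3362 TPM at 30 nmol/kg. The groups did not overlap, and the medians in between were 719, 1142 and 1669 TPM at 3, 10 and 20 nmol/kg. At 30 nmol/kg the log2 change came to 2.84 ± 0.26 (SE, FDR = 1.95e-11). Hpd, which makes homogentisate from the product of Tat, went from 1612, 2144 and 2373 TPM to 3046, 3172 and 3361 TPM without overlap, a log2 change of 0.57 ± 0.11 (SE, FDR = 5.66e-05). Of the enzymes after it, Gstz1 (maleylacetoacetate isomerase) was called lower at -0.37 (FDR = 1.29e-04), whereas Hgd (homogentisate dioxygenase) at 0.14 and Fah (fumarylacetoacetase) at -0.03 were not called.

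Tdo2, tryptophan 2,3-dioxygenase (chr3:81957090-81976202), controls entry into the kynurenine pathway. Its TPM were 811, 915 and 1144 with vehicle and 1139, 2102 and 2490.3 at 30 nmol/kg. The lowest mouse at 30 nmol/kg fell just under the highest vehicle mouse, and the log2 change was 1.00 ± 0.21 (SE, FDR = 1.25e-04). Downstream, Kmo (kynurenine 3-monooxygenase) was called lower at -0.24 (FDR = 0.0111), and Afmid (kynurenine formamidase, -0.23) and Kynu (kynureninase, 0.16) were not called. Haao, which forms the precursor of quinolinate, measured 416, 474 and 531 TPM and 343, 406 and 462 TPM in overlapping groups, with a log2 change of -0.28 ± 0.10 (SE, FDR = 0.0197). Its call was lost without vehicle replicate 44 (-0.25), 47 (-0.23) or 48 (-0.21) or without replicate 71 of the 30 nmol/kg group (-0.21), with only the compared groups in the fit (-0.26), and with sample weights (-0.13).

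In branched-chain breakdown, 2 of 7 enzymes of the keto acid entry and leucine steps were called higher and 3 lower, and 0 of 6 of the valine and propionate steps higher and 4 lower, beside 28.9% and 29.9% of all genes. The counts of the leucine steps are near that background. The component enzymes of the branched-chain keto acid dehydrogenase diverged: Dbt, its acyltransferase core, rose while Bckdha and Bckdhb, the subunits of its decarboxylase, fell. Dbt measured 25.97, 30.5 and 40.2 TPM under vehicle and 48.5, 52.6 and 64.2 TPM at 30 nmol/kg without overlap, a log2 change of 0.70 ± 0.10 (SE, FDR = 4.12e-07). Bckdha changed by -0.22 ± 0.06 (SE, FDR = 0.00129) and Bckdhb by -0.32 ± 0.06 (SE, FDR = 3.56e-05). Ivd, the isovaleryl-CoA dehydrogenase of leucine breakdown, was higher by 0.31 (FDR = 0.00173). Mccc2, a subunit of the carboxylase that follows Ivd, was at 40.2, 42.9 and 45.3 TPM under vehicle and 28.96, 30.3 and 33.4 TPM at 30 nmol/kg, with every treated mouse below every vehicle mouse and a log2 fold change of -0.53 ± 0.08 (SE, FDR = 5.69e-07). Its partner Mccc1 (-0.13) and the mitochondrial transaminase Bcat2 (0.13) were not called.

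On the valine route Hibch, 3-hydroxyisobutyryl-CoA hydrolase (chr1:52844929-52920986), was called lower at every dose in the fit of all groups. At 3 nmol/kg it was not called with only vehicle and that dose in the fit. Its median TPM was 59.5 with vehicle and 51.3, 48.2, 42.6 and 37.2 at the 4 rising doses of BI 456906. At each dose, 3 nmol/kg included, all 6 mice lay below all 6 vehicle mice (57.8, 59.5 and 62.7 TPM under vehicle, 35.7, 37.2 and 40.2 TPM in the group of 30 nmol/kg). At 30 nmol/kg the log2 change came to -0.74 ± 0.07 (SE, FDR = 7.01e-11). Pcca, a subunit of propionyl-CoA carboxylase, was at 46.4, 60.9 and 68.7 TPM and 32.1, 35.03 and 41.9 TPM, again without overlap, a log2 change of -0.60 ± 0.10 (SE, FDR = 5.83e-06). Its partner Pccb (-0.40) and the dehydrogenase Hibadh (-0.36) were called lower too, with FDR of 1.49e-07 and 1.86e-04. Aldh6a1 (methylmalonate semialdehyde dehydrogenase, 0.09) and Mut (methylmalonyl-CoA mutase, -0.05) were not called.

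All 7 tested enzymes of glycine, serine and threonine were called at 30 nmol/kg, 4 higher and 3 lower, beside 28.9% and 29.9% of all genes. Sds, serine dehydratase, turns serine into pyruvate and ammonia (chr5:120476526-120483932, plus strand), and Sdsl, its relative, lies beside it on the other strand (chr5:120458186-120472810). Sds measured 117, 145 and 179 TPM under vehicle and 566, 638 and 703 TPM at 30 nmol/kg. The groups did not overlap, and the log2 change was 2.03 ± 0.24 (SE, FDR = 6.13e-09). Sdsl was less abundant, at 12.3, 16.7 and 17.9 TPM and 27.9, 44.9 and 57.3 TPM without overlap, with a log2 change of 1.48 ± 0.24 (SE, FDR = 1.79e-06). Agxt, the peroxisomal transaminase that removes glyoxylate, rose by 0.75 ± 0.13 (SE, FDR = 6.53e-06). The glycine cleavage system split: Gldc, its decarboxylase, rose by 0.47 ± 0.11 (SE, FDR = 2.45e-04), whereas Amt, its aminomethyltransferase, changed by -0.50 ± 0.10 (SE, FDR = 5.40e-05) and Gcsh, its lipoyl carrier protein, by -0.65 ± 0.08 (SE, FDR = 6.91e-09). Gcsh went from 86.8, 87.95 and 92.96 TPM to 49.6, 59.8 and 68.1 TPM, and the 6 mice of each BI 456906 dose lay below the 6 vehicle mice. Shmt1, which interconverts serine and glycine in the cytosol, was called lower at -0.52 (FDR = 2.84e-04).

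**Figure D2:**
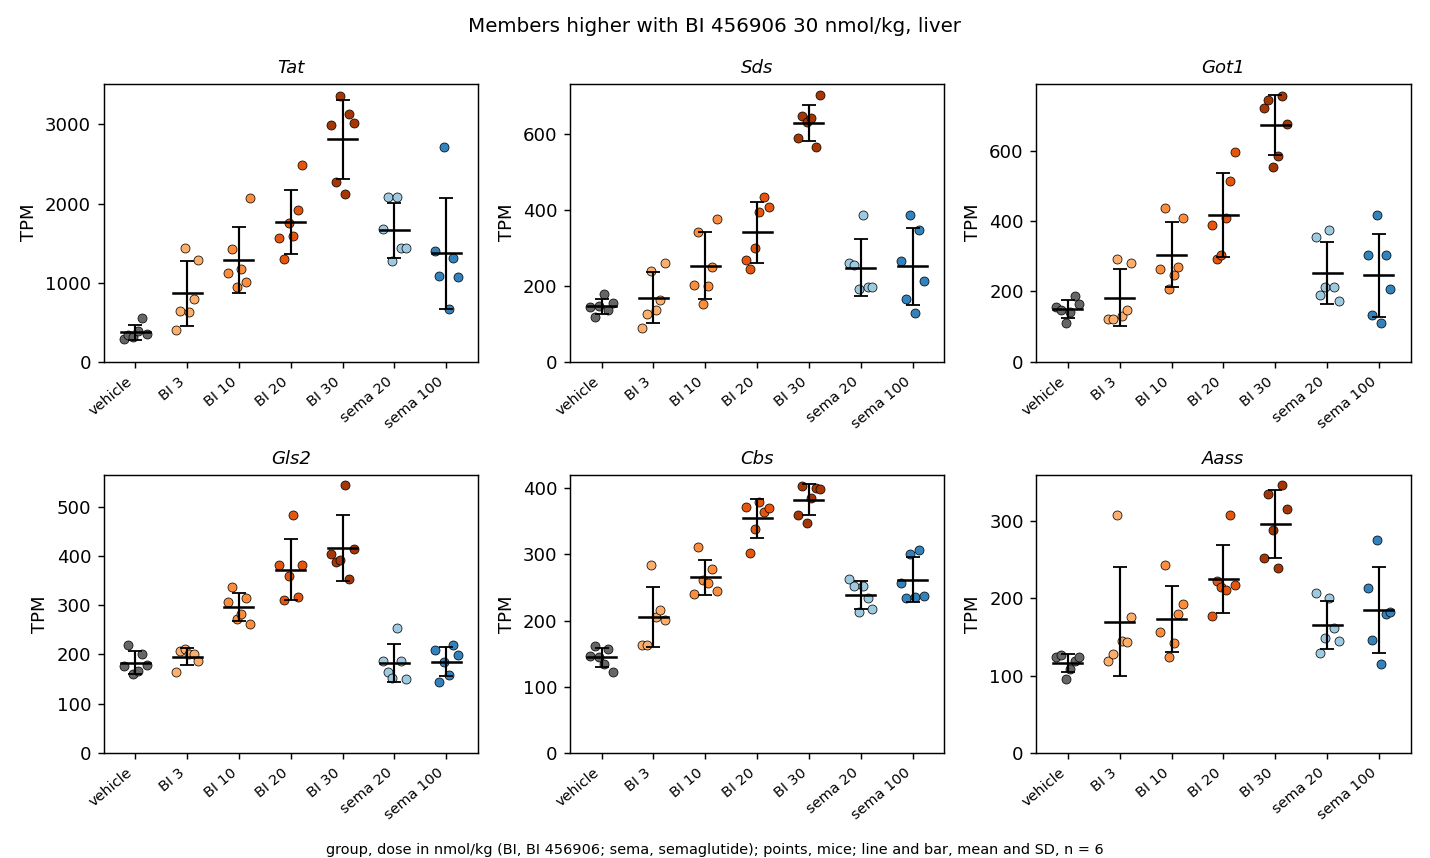
TPM in liver of Tat, Sds, Got1, Gls2, Cbs and Aass by group, each point 1 mouse, with the mean (line) and SD (bar) of 6. All 6 mice at 30 nmol/kg of BI 456906 lie above all 6 vehicle mice in each panel.

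Of the 4 histidine enzymes only the first was called, which makes 1 higher and 0 lower, beside 28.9% and 29.9% of all genes. Hal, histidine ammonia-lyase (chr10:93488768-93519304), measured 98.7, 113 and 119 TPM under vehicle and 154, 196 and 244 TPM at 30 nmol/kg without overlap, a log2 change of 0.83 ± 0.18 (SE, FDR = 1.67e-04). Amdhd1, the imidazolonepropionase, lay at 76.2, 86.3 and 89.95 TPM and 67.1, 79.4 and 114 TPM in overlapping groups, a log2 change of -0.11 ± 0.12 (SE, FDR = 0.466). Uroc1 (urocanate hydratase, -0.01) and Ftcd (formiminotransferase cyclodeaminase, 0.01) were not called.

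In sulfur amino acid breakdown the transsulfuration enzymes rose. Cbs, cystathionine beta-synthase (chr17:31608894-31637238), commits homocysteine to cysteine. It was at 123, 146 and 162 TPM under vehicle and 347, 392 and 403 TPM at 30 nmol/kg, a log2 change of 1.39 ± 0.10 (SE, FDR = 2.16e-13). Its medians at 3, 10 and 20 nmol/kg were 202, 259 and 367 TPM, and at each of the 4 doses every mouse exceeded every vehicle mouse. Cth, cystathionine gamma-lyase, which completes the route, had 148, 177 and 221 TPM and 226, 284 and 323 TPM without overlap, a log2 change of 0.58 ± 0.13 (SE, FDR = 1.92e-04). Csad, which leads to taurine, varied widely, with 58.9, 98.9 and 149 TPM in vehicle and 74.2, 145 and 253 TPM at 30 nmol/kg. Its groups overlapped and its log2 fold change was 0.44 ± 0.24 (SE, FDR = 0.121), which passed without replicate 70 of that group (0.63, FDR = 0.0247). Cdo1, cysteine dioxygenase, had medians of 1542 TPM and 1913 TPM and was not called (FDR = 0.0898).

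Proline and ornithine enzymes gave 1 rise and 1 fall among 4, beside 28.9% and 29.9% of all genes, so these counts are near that background. Oat, ornithine aminotransferase (chr7:132557478-132576398), measured 381, 481 and 593 TPM under vehicle and 607, 729 and 793 TPM at 30 nmol/kg. The groups were apart, with a log2 change of 0.52 ± 0.13 (SE, FDR = 8.77e-04). Aldh4a1, which makes glutamate from the common intermediate of proline and ornithine, had 199.7, 217 and 229.6 TPM and 155, 184 and 213 TPM with some overlap, a log2 change of -0.39 ± 0.11 (SE, FDR = 0.00236). Prodh (0.14) and Prodh2 (-0.17), dehydrogenases of proline and hydroxyproline, were not called.

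Among the enzymes that handle the amino group, Got1, the cytosolic aspartate aminotransferase (chr19:43499752-43524605), had 110.1, 150.3 and 188 TPM under vehicle and 555, 699.5 and 756 TPM at 30 nmol/kg. The lowest treated mouse was far above the highest vehicle mouse, and the log2 change was 2.10 ± 0.28 (SE, FDR = 5.11e-08). Its mitochondrial counterpart Got2 was called in the other direction, at -0.33 ± 0.06 (SE, FDR = 2.78e-06). Gls2, the liver glutaminase (chr10:128194457-128210004), rose from 160.0, 177 and 219.8 TPM to 353, 398 and 544 TPM without overlap, a log2 change of 1.11 ± 0.12 (SE, FDR = 7.77e-10). Glud1, glutamate dehydrogenase, was higher by 0.39 (FDR = 2.65e-06), and the alanine aminotransferases Gpt (-0.18) and Gpt2 (0.19) were not called.

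The lysine enzyme Aass, the bifunctional aminoadipic semialdehyde synthase (chr6:23072173-23132986), measured 95.9, 121 and 127 TPM under vehicle and 239, 302 and 347 TPM at 30 nmol/kg. The groups did not overlap, with a log2 change of 1.27 ± 0.20 (SE, FDR = 8.62e-07). The enzymes that clear dimethylarginines both fell. Ddah1, which hydrolyses asymmetric dimethylarginine (chr3:145758675-145894277), dropped from 45.5, 51.2 and 58.6 TPM to 11.3, 16.2 and 33.6 TPM, a log2 change of -1.67 ± 0.19 (SE, FDR = 3.18e-09) and the largest fall in the list. Agxt2, a mitochondrial transaminase that also acts on dimethylarginines, went from 116, 136 and 143 TPM to 79.8, 95.3 and 103 TPM, a log2 change of -0.59 ± 0.13 (SE, FDR = 1.22e-04). In both genes all treated mice lay below all vehicle mice.

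**Figure D3:**
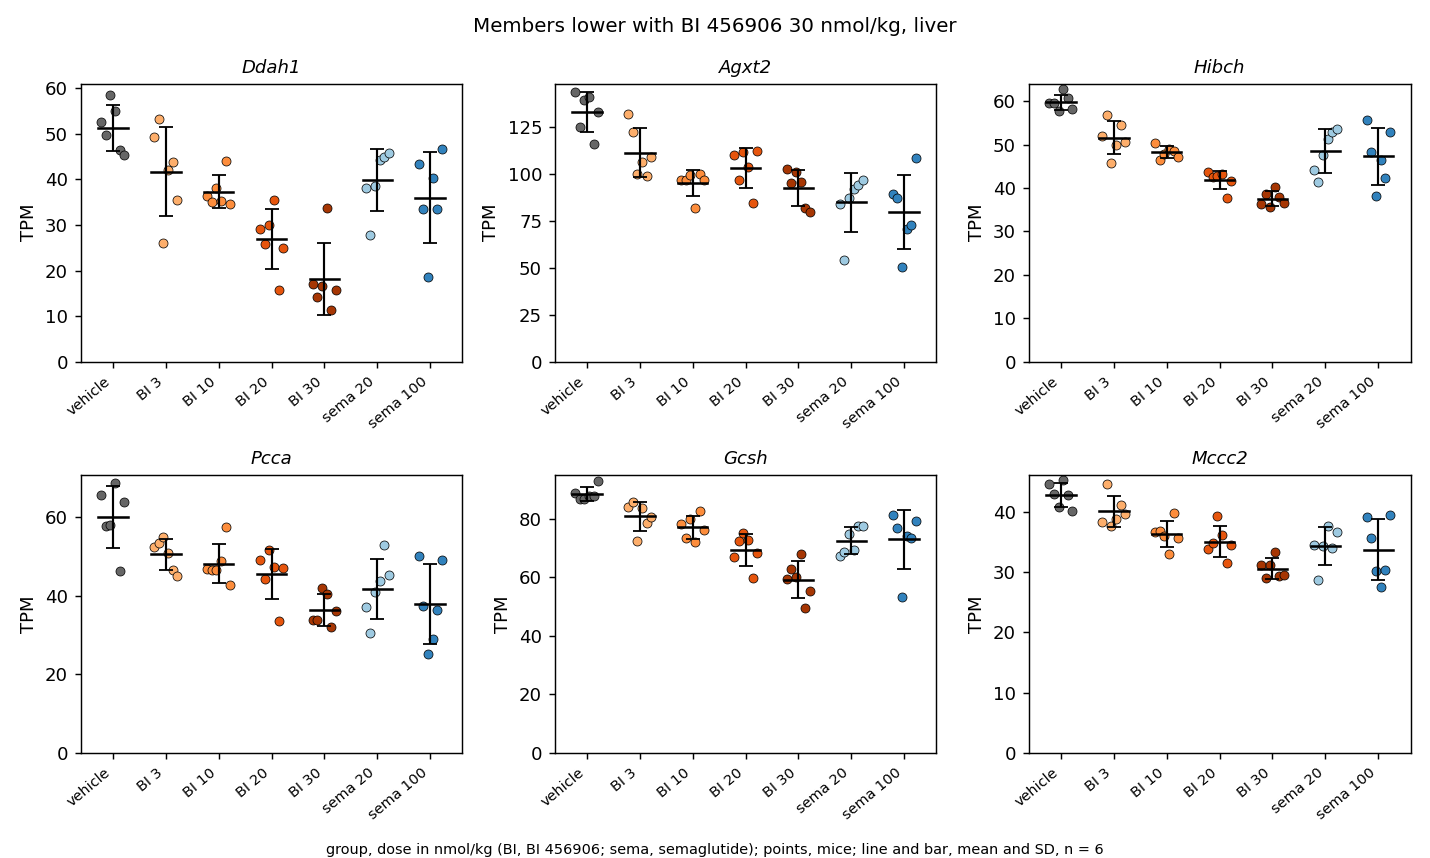
TPM in liver of Ddah1, Agxt2, Hibch, Pcca, Gcsh and Mccc2 by group, each point 1 mouse, with the mean (line) and SD (bar) of 6. All 6 mice at 30 nmol/kg of BI 456906 lie below all 6 vehicle mice in each panel.

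Several of the rising enzymes, Sds, Hal and Gls2 among them, are known as periportal genes of the hepatocyte. These were picked as examples and do not stand for the rising enzymes as a set. Whether the other rising enzymes, Oat among them, are periportal or pericentral was not examined. The 5 periportal markers outside the list were all called lower at 30 nmol/kg, with sums of 1807 to 2203 TPM for vehicle, 1084 to 1248 TPM for 30 nmol/kg of BI 456906 and 1497 to 1665 TPM for semaglutide 100 nmol/kg. Of 8 pericentral markers, 2 were higher and 4 lower at 30 nmol/kg. Their sums were 6595 to 8872 TPM for vehicle, 5452 to 7354 TPM for that dose and 7677 to 9922 TPM for semaglutide 100 nmol/kg. The part of these shifts in the enzymes' values was not tested.

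Besides Haao and Csad, 5 enzymes changed side at 30 nmol/kg with 1 library left out. Kynu was called higher without vehicle replicate 44 (0.19) or 47 (0.20) or without replicate 69 (0.18) or 71 (0.19), and Hgd without vehicle replicate 47 (0.19). Cdo1 was called higher without vehicle replicate 48 (0.29) or replicate 70 (0.28). Afmid was called lower without vehicle replicate 45 (-0.30) or replicate 70 (-0.28), and Prodh2 without vehicle replicate 46 (-0.22).

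Exons of 17 of the 52 enzymes overlap exons of another annotated gene, and the strand setting of the authors' counting is not given in the sources used here, so their values are uncertain by the reads of the other gene. Sds shares 360 bases with Plbd2, which was lower at 30 nmol/kg (-0.28), and Gls2 shares 97 bases with Spryd4 (0.23). Csad shares 278 bases with Zfp740 (0.16), and Pcca shares 241 bases with Ggact, which was lower (-0.84) as Pcca was. Aldh4a1 and Agxt2 share 1595 and 155 bases with the same-strand genes Gm21969 and Gm21973, which were not tested. Among the enzymes without full values, Gstz1 shares 465 bases with Pomt2 (0.53) and Shmt1 shares 184 bases with Smcr8 (1.01). Both of these other genes were called higher, where Gstz1 and Shmt1 were lower. Bckdha shares 1171 bases with B3gnt8, which was not called (-0.17, FDR = 0.513). Afmid shares 1566 bases with the same-strand gene Gm20708, which was not tested. Aldh6a1 shares 1078 bases with Bbof1, which was not called (0.37, FDR = 0.287).

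Semaglutide was compared with the same vehicle mice, so its values and those of BI 456906 share their controls. At 20 nmol/kg, 6 of 51 enzymes (11.8%) were called higher and 18 (35.3%) lower, beside 23% and 23.5% of all genes. At 100 nmol/kg, 9 (17.6%) were higher and 20 (39.2%) lower, beside 24% and 24.1%. The median log2 fold change over the enzymes was -0.12 and -0.09 at these doses, against -0.03 and -0.02 over all genes. On the TPM scale the share of higher calls over all genes was larger, 61.2% of calls at 100 nmol/kg with log2(TPM + 1) against 49.9% here, and the same shares at 20 nmol/kg were 64.4% and 49.5%.

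Tat was again the largest rise, with 1271, 1558 and 2083 TPM at 20 nmol/kg of semaglutide and 663, 1198 and 2711 TPM at 100 nmol/kg. Neither group overlapped vehicle, and the log2 changes were 2.09 ± 0.25 (SE, FDR = 5.34e-08) and 1.71 ± 0.25 (SE, FDR = 9.22e-07). Csad had 132, 191 and 418 TPM at 20 nmol/kg and 128, 246 and 354 TPM at 100 nmol/kg, with log2 changes of 0.88 ± 0.25 (SE, FDR = 0.00329) and 1.08 ± 0.25 (SE, FDR = 4.16e-04). The Csad values overlapped vehicle at both doses. Cbs was higher by 0.63 and 0.78, Dbt by 0.33 and 0.30 and Glud1 by 0.20 and 0.24, each with an FDR of at most 0.05. Sds was called at both doses too (0.62 and 0.58), but its call at 20 nmol/kg was lost without vehicle replicate 44 (0.56) or semaglutide replicate 73 (0.60) or 76 (0.50).

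At 100 nmol/kg the calls of Sds, Hpd, Tdo2 and Aass were lost without replicate 81, the second shallowest liver library with 30040261 reads. Without it the log2 fold changes were 0.42 for Sds (FDR = 0.144), 0.26 for Hpd (FDR = 0.0761), 0.41 for Tdo2 (FDR = 0.11) and 0.42 for Aass (FDR = 0.0754), and the number of enzymes called higher went from 9 to 5. Tdo2 also lost its call without replicate 83 (0.53) or vehicle replicate 45 (0.50), Dbt without vehicle replicate 46 (0.24), and Sds and Hpd in 7 of the 12 leave-outs each.

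At 100 nmol/kg of semaglutide the enzymes called lower were spread over most routes. They were 4 of 7 of the keto acid entry and leucine steps, 4 of 6 of valine and propionate, both dimethylarginine enzymes, 2 of 4 of histidine, 2 of 4 of proline and ornithine, 2 of 7 of glycine, serine and threonine, 2 of 6 of those that handle the amino group, and 1 of 5 each of tyrosine and tryptophan, beside 24.1% of all genes. Pcca was at 25.2, 36.9 and 50.2 TPM at 100 nmol/kg, a log2 change of -0.70 ± 0.10 (SE, FDR = 1.17e-06). Hibch was at 38.1, 47.4 and 55.8 TPM (-0.41), Mccc2 at 27.6, 33.1 and 39.5 TPM (-0.41) and Agxt2 at 50.6, 79.97 and 109 TPM (-0.83). All 4 were called, and of these only Pcca overlapped vehicle. They are examples, since among the other enzymes called lower some overlapped vehicle and some did not. The share of all genes without overlap was not computed for semaglutide. Called lower at 100 nmol/kg as well were Bckdha, Bckdhb, Mccc1, Hibadh, Pccb, Gstz1, Haao, Gcsh, Shmt1, Uroc1, Ftcd, Aldh4a1, Oat, Got2, Gpt and Ddah1. Without replicate 81, Shmt1 went from -0.32 to -0.20 (FDR = 0.146), and Haao too lost its call without that library (-0.22) or without vehicle replicate 48 (-0.25).

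Oat was called higher with BI 456906 and lower with semaglutide. With semaglutide it measured 256, 312 and 452 TPM at 20 nmol/kg and 285, 327 and 385 TPM at 100 nmol/kg, against 381, 481 and 593 TPM under vehicle and 618, 768 and 874 TPM at 20 nmol/kg of BI 456906. Both semaglutide groups overlapped vehicle slightly, and neither overlapped the BI 456906 group. The log2 fold changes against vehicle were -0.66 ± 0.13 (SE, FDR = 7.48e-05) and -0.60 ± 0.13 (SE, FDR = 2.45e-04).

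**Figure D4:**
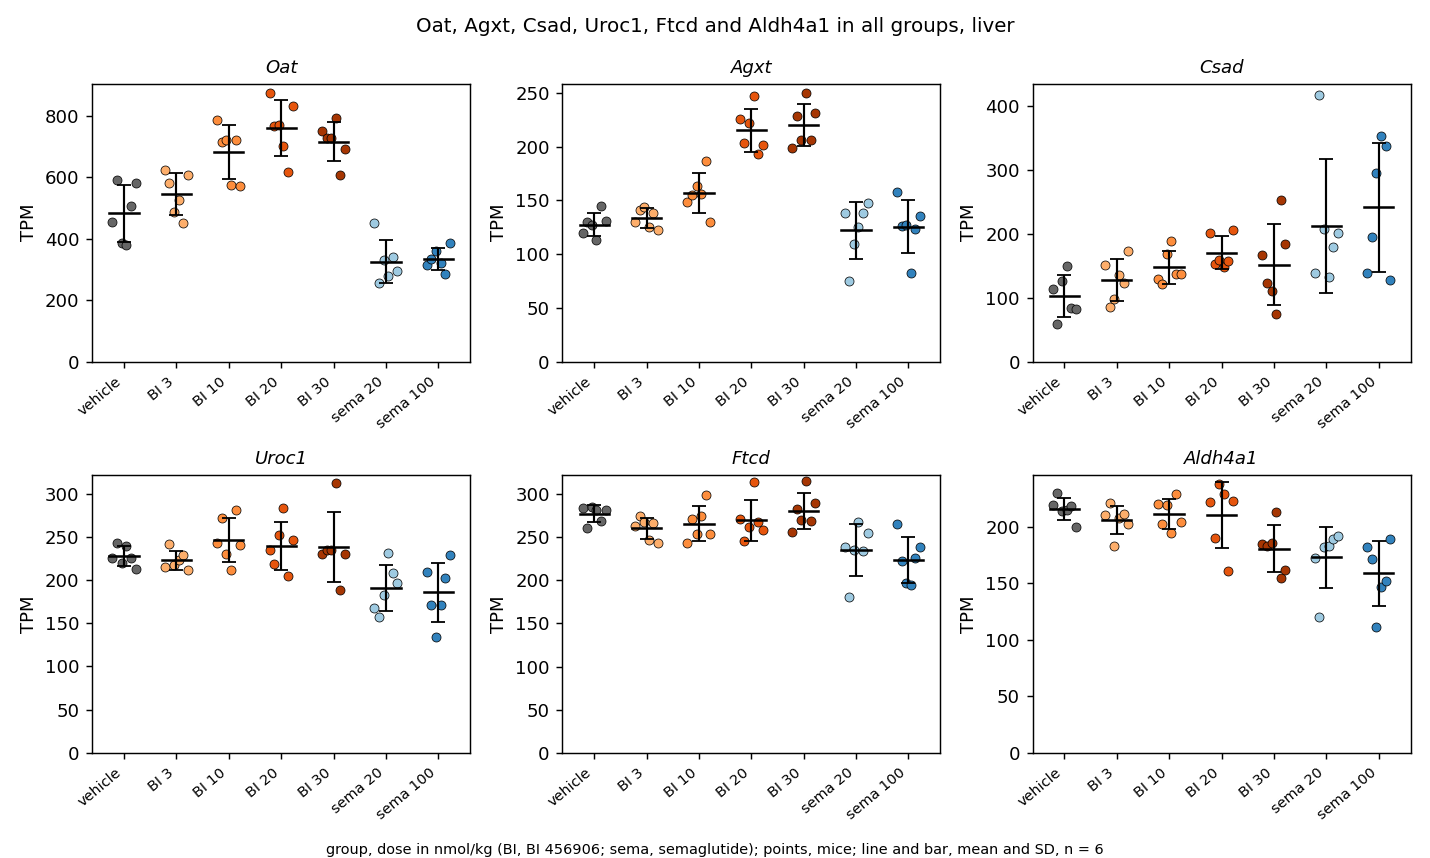
TPM in liver of Oat, Agxt, Csad, Uroc1, Ftcd and Aldh4a1 by group, each point 1 mouse, with the mean (line) and SD (bar) of 6. The mean of Oat lies above that of vehicle in each BI 456906 group and below it in both semaglutide groups, with single mice overlapping, and Csad is spread widely in each group.

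The compounds were given at the same dose only at 20 nmol/kg, which makes 1 pair of groups for the direct comparison, with p adjusted over all 15964 genes. An equal dose is not an equal drug level. Near the end of dosing, the paper reports higher plasma levels of the peptide that acts on both receptors at this dose. It also reports a lower potency of that peptide at the receptor that both compounds activate. The part of plasma level and potency in the differences between the compounds was not tested. At 20 nmol/kg, 6 of 51 enzymes were higher with BI 456906 than with semaglutide, beside 0.908% of all genes. Oat differed by 1.22 (95% interval 0.96 to 1.48, FDR = 6.83e-08) in log2 units, Gls2 by 1.00 (95% interval 0.76 to 1.24, FDR = 1.06e-06) and Agxt by 0.81 (95% interval 0.55 to 1.07, FDR = 1.85e-04). Cth differed by 0.60 (95% interval 0.34 to 0.86, FDR = 0.00497), Cbs by 0.58 (95% interval 0.38 to 0.79, FDR = 5.21e-04) and Hgd by 0.34 (95% interval 0.19 to 0.50, FDR = 0.00802). All 6 calls stayed when any 1 library was left out. In TPM, Gls2 was at 310.3, 370.1 and 483 with BI 456906 and 151, 175 and 254 with semaglutide, and Agxt at 193, 213 and 247 and 74.8, 131 and 148, in each case without overlap.

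No enzyme was called lower with BI 456906 at 20 nmol/kg by limma/voom (0 of 51, beside 1.51% of all genes), where 3 had an unadjusted p under 0.05, and edgeR and DESeq2 also called 0, with 2 unadjusted each. Hibch was called lower when semaglutide replicate 74 was left out (-0.26, FDR = 0.0319). Over the list the median difference was 0.11 and over all genes 0.00. For enzymes that were not called the intervals leave room for a difference: Tat differed by 0.04 (95% interval -0.49 to 0.57, FDR = 0.973), Sds by 0.48 (95% interval -0.01 to 0.97, FDR = 0.361), Got1 by 0.74 (95% interval 0.18 to 1.31, FDR = 0.17) and Ddah1 by -0.57 (95% interval -0.96 to -0.18, FDR = 0.109). In 47 of the 51 enzymes the interval lay within 1 log2 unit of 0 on either side.

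**Figure D5:**
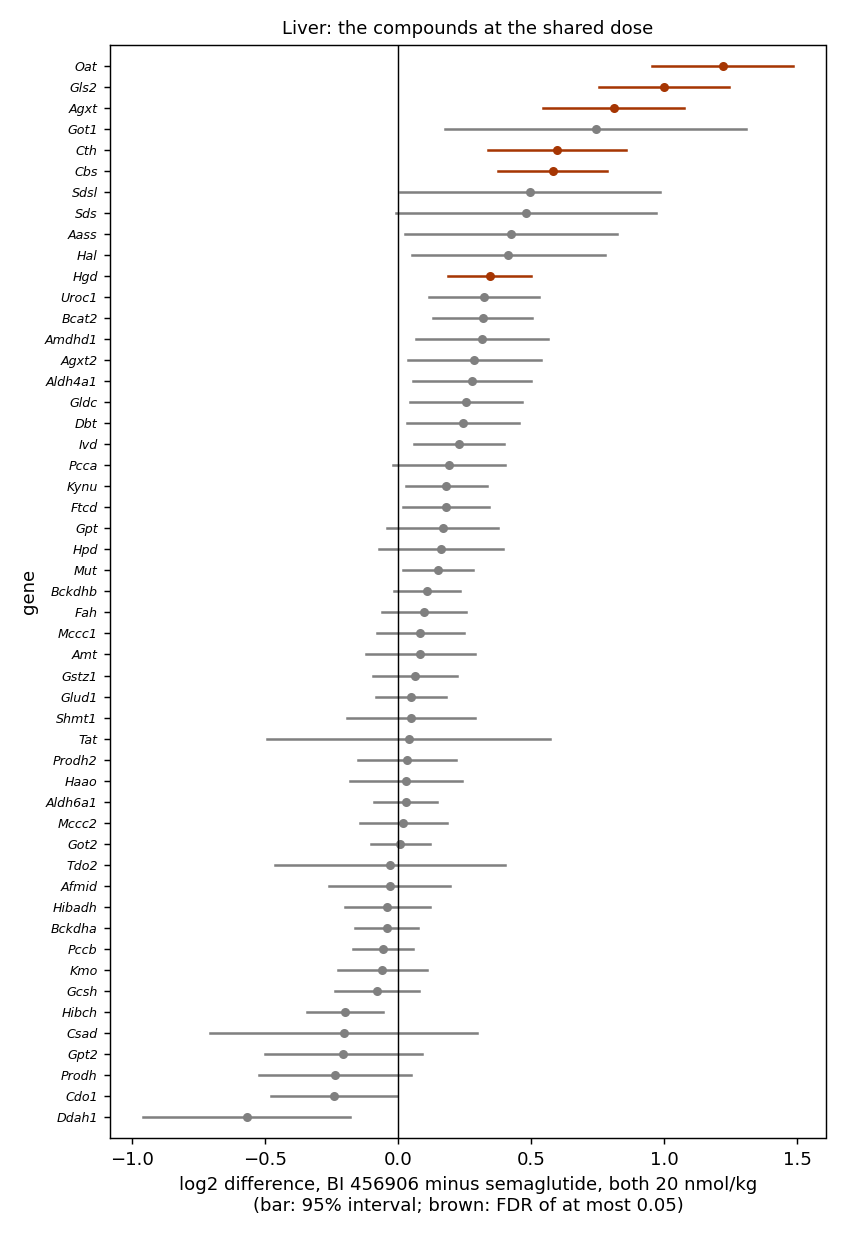
Difference between BI 456906 and semaglutide at 20 nmol/kg (log2, limma/voom, 6 mice each) for the 51 enzymes, with 95% intervals. The values run from -0.57 to 1.22, and the 6 called differences are all positive.

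The doses differ in the remaining comparisons, so these set values side by side. Against semaglutide at 20 nmol/kg, BI 456906 at 30 nmol/kg had 16 enzymes called higher and 4 lower, beside 6.09% and 7.5% of all genes. Against 100 nmol/kg the numbers were 15 and 3, beside 4.15% and 5.59%. Against 100 nmol/kg Got1 was higher by 1.61 ± 0.28 (SE, FDR = 1.82e-04), Sds by 1.44 ± 0.25 (SE, FDR = 1.26e-04), Gls2 by 1.17 ± 0.12 (SE, FDR = 1.53e-08) and Oat by 1.12 ± 0.13 (SE, FDR = 1.53e-07). Sdsl (1.08), Tat (1.13), Agxt (0.82), Aass (0.72), Cbs (0.60), Dbt (0.40), Gldc (0.36), Uroc1 (0.36), Ftcd (0.33), Ivd (0.26) and Hgd (0.23) were the others called higher. The 3 lower enzymes were Ddah1 at -1.03 ± 0.19 (SE, FDR = 4.18e-04), Hibch at -0.33 ± 0.07 (SE, FDR = 0.00213) and Gcsh at -0.30 ± 0.08 (SE, FDR = 0.0122). Hgd and Ivd lost their calls in 10 and 7 of the 12 leave-outs. Uroc1 lost it without replicate 70 of the 30 nmol/kg group or semaglutide replicate 81 (0.29 in each case), Gldc without replicate 72 (0.33) or semaglutide replicate 80 (0.33) or 82 (0.27), Gcsh without replicate 71 of the 30 nmol/kg group (-0.23, FDR = 0.0526) and Aass without semaglutide replicate 82 (0.58, FDR = 0.0576).

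Promoter windows of 300 bases around the start site were read from RefSeq (GRCm38.p6) for 42 of the 52 enzymes, 49 windows in all, to look for cyclic AMP response elements, short motifs bound by factors downstream of the glucagon receptor. The full element TGACGTCA, which is its own reverse complement, was in 0 of the 49 windows and in 1.79% of all 32851 windows. Its short form TGACG, or CGTCA on the other strand, which is part of the full element, was in 7 windows (14.3%) and in 20.8% of all windows. A match is only a run of letters in this stretch. Of the 7 windows that hold the short form, all from enzymes of the list, those of Oat, Aass and Csad are printed as examples. They run 5′ to 3′ on the gene's strand, with the short form in capitals. It starts 34 bases downstream of the start site in Oat, and upstream of it in Aass (position -37) and Csad (position -54). The RefSeq start used for Csad lies upstream of the gene as GENCODE places it (chr15:102176999-102204724).
Oat, chr7:132576349-132576648, minus strand: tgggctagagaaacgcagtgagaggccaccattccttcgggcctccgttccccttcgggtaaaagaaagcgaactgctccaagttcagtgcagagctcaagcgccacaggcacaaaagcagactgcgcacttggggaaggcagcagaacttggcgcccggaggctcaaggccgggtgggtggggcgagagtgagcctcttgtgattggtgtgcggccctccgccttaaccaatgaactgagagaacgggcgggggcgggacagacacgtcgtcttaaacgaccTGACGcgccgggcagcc
Aass, chr6:23132937-23133236, minus strand: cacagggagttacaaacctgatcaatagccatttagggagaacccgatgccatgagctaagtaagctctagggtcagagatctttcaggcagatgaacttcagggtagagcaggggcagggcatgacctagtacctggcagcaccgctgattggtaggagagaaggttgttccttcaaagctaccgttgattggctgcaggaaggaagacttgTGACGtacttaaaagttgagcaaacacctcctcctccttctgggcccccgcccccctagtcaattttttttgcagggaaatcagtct
Csad, chr15:102205003-102205302, minus strand: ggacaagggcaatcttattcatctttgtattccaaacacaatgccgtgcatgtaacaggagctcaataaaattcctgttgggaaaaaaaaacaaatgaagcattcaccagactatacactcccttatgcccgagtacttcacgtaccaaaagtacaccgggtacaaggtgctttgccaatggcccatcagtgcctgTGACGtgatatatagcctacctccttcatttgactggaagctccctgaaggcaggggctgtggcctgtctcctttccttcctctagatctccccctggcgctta

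In eWAT more of the enzymes were called lower than higher. At 30 nmol/kg of BI 456906, 2 of 51 were called higher and 15 lower, beside 10.9% and 13% of the 18536 genes tested there. With semaglutide at 100 nmol/kg, 0 were higher (0 with an unadjusted p under 0.05 by limma/voom, and 0 with library size alone or on log2(TPM + 1)) and 16 lower, beside 5.48% and 9.42%. The 2 higher at 30 nmol/kg were Bcat2, the transaminase that starts branched-chain breakdown outside the liver, and Prodh. Bcat2 went from 105, 125 and 132 TPM to 141, 183 and 199.8 TPM without overlap, a log2 change of 0.49 ± 0.13 (SE, FDR = 0.00485), and Prodh changed by 0.81 ± 0.30 (SE, FDR = 0.0447). The 15 lower were Afmid, Kmo, Kynu, Haao, Sdsl, Gcsh, Uroc1, Amdhd1, Ftcd, Cth, Prodh2, Gpt, Aass, Ddah1 and Agxt2. Albumin, a hepatocyte transcript, measured 9.87, 917 and 3680 TPM in the vehicle eWAT libraries and 12.1, 59.4 and 548 TPM at 30 nmol/kg. With semaglutide at 100 nmol/kg it measured 3.47, 47.2 and 747 TPM. Liver transcripts were more abundant in some vehicle libraries, and their part in the falls was not tested.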

How the data were processed

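RNA sequencing of 42 liver and 42 eWAT libraries was analysed. The labels describe a full-length low-input kit with single-end reads, whereas the paper describes a directional poly(A) kit with reads from both ends, and the strand setting of the counting is not given in the sources used here. The submitters' processing notes name STAR 2.5.2b, RSEM 1.3.0, featureCounts 1.5.1, FastQC 0.11.5, mm10 and GRCm38, with no roles. The authors deposited a signal, which is the reads per gene divided by 1 factor per library (whole reads were recovered for 100% of values), and a table of TPM. Both units are relative within a library, so neither gives RNA per cell. Symbols and coordinates are from GENCODE M21 on GRCm38, with a symbol for 48348 of 48794 genes.

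The signal was tested with limma/voom (limma 3.58.1 with edgeR 4.0.16 in R 4.3.3), TMM factors, the filterByExpr filter and a prior count of 0.5, in 1 fit of the 7 groups per tissue. FDR is the Benjamini-Hochberg adjusted p over all genes tested, intervals are at 95%, and values per group are TPM as deposited. The procedure was tested on simulated data. The p-values measure the spread between mice. No 2 libraries of a group agreed within counting error. The labels name no batch of preparation.

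The enzymes and the other lists were chosen with earlier results of these data known. Full values are given for enzymes with a log2 fold change of at least 1 in size and an FDR of at most 0.05 against vehicle in any group, and for the 2 of each route with the largest change at 30 nmol/kg. Of other pathway genes, the 3 largest rises and falls are named. The remaining enzymes are named with their fold change, and genes that share exons with them were named after their values were seen. Alternatives were RLE factors, library size alone, no filter, at least 10 in every library, voom, edgeR and DESeq2 1.42.0 on recovered reads, limma on log2(TPM + 1) and log2(TPM + 0.1), sample weights, only the groups compared, a fold threshold, the slope without vehicle and each library left out. Cdo1 is given without coordinates. The difference between tissues was not tested.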

Additional observations from a re-analysis of the deposited data

Results flagged for a closer look

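In 15 of 154 sets of 6 mice, formed by 22 enzymes in 7 groups, the most extreme mouse stood further from the next than Dixon's test at the 95% level allows. Chance gives about 1 in 20 for independent sets of normally distributed values. The 22 enzymes were measured in the same mice and on the TPM scale, so that rate need not hold here, and an excess was not tested. At 30 nmol/kg of BI 456906 it was replicate 70 in 4 cases, with the highest TPM of Gls2 (544.42, next 414.63), Amdhd1 (114.12, next 81.2), Dbt (64.21, next 53.8) and Ddah1 (33.65, next 16.96). At 20 nmol/kg, replicate 65 was highest for Aass (308.21) and lowest for Hibch (37.77). At 10 nmol/kg, replicate 58 was lowest for Agxt2 (81.66) and replicate 59 highest for Ddah1 (44.14). At 3 nmol/kg, replicate 51 was highest for Aass (307.77). With semaglutide at 20 nmol/kg, replicate 74 was lowest for Agxt2 (54.27) and Aldh4a1 (119.88) and highest for Csad (417.63), and replicate 76 was highest for Gls2 (254.21) and Sds (386.47). With semaglutide at 100 nmol/kg, replicate 81 was highest for Tat (2710.9, next 1398.31).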

How the results depend on the processing

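The alternatives were counted together with the leave-outs of lowest and highest value for each result, not with every leave-out. Of the counts of enzymes, 256 stayed within 1.5 times the count given above and 32 did not. Of the named fold changes at 30 nmol/kg, 282 stayed called or not called as above, 1 gained a call (Csad) and 0 reversed. The other 3 lost a call, all of them Haao, with sample weights, with only the groups compared and with a library left out. A fold threshold of 1 in size left 1 and 0 enzymes higher and lower at 3 nmol/kg and 1 and 0 at 10. It left 4 and 1 at 20 and 8 and 1 at 30 nmol/kg, and 1 and 0 with semaglutide at 20 and 2 and 0 at 100. Between the compounds at 20 nmol/kg it left 1 higher. For 30 nmol/kg against semaglutide at 20 and at 100 nmol/kg it left 5 and 1, and 6 and 1. Of all genes, 5.99% and 6.9% passed it at 30 nmol/kg. That share was not computed for the other comparisons, so their counts have no background beside them. At 3 nmol/kg, only the groups compared gave 0 higher and 0 lower (3 and 4 above), no filter and both TPM scales gave 2 lower, and leaving out 1 library gave 2 to 5 higher (5 without replicate 49) and 0 to 4 lower (0 without vehicle replicate 48). Sample weights gave 17 higher at 10 nmol/kg (11 above) and 10 higher with semaglutide at 20 (6 above). They gave 1 lower between the compounds at 20 nmol/kg and 6 lower at 30 against semaglutide 100 (3 above). Calls over all genes grew with these weights as well. In the same order they went from 3095 to 3581, from 3674 to 4267, from 241 to 502 and from 893 to 1714. Leaving out 1 library gave 5 to 12 higher with semaglutide at 100, 0 to 1 lower between the compounds at 20 nmol/kg, and 2 to 5 lower at 30 against semaglutide 20 (2 without replicate 71). In eWAT, log2(TPM + 1) gave 1 higher (2 above). Over all genes the share of higher calls at 3 nmol/kg was 63.2%, and 79% with log2(TPM + 1) or 52.8% with library size alone. With only the groups compared, 1 of 14946 genes was called higher at that dose and 2 lower. The fit of all groups called 1351 and 787. The cause of these differences was not tested. No paired analysis was possible because the groups share no replicate numbers. Reads limit the precision of enzymes near 0 TPM, such as Tdh.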

Other observations

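Genes beside the list were also read, as 62 other genes of amino acid, methyl group and glyoxylate metabolism, of which 57 were tested in liver. At 30 nmol/kg of BI 456906, 9 were called higher and 37 lower, beside 28.9% and 29.9% of all genes, with a median log2 fold change of -0.29 beside -0.03 over all genes, and with semaglutide at 100 nmol/kg 9 were higher and 30 lower, beside 24% and 24.1%. Acmsd, which diverts tryptophan breakdown away from NAD synthesis, rose most, from 2.55, 2.94 and 5.64 TPM with vehicle to 8.06, 11.6 and 12.8 TPM at 30 nmol/kg without overlap, a log2 change of 1.71 ± 0.27 (SE, FDR = 9.40e-07). Mat1a, which makes S-adenosylmethionine in the liver, rose from 1616, 2085 and 2157 TPM to 3689, 4502 and 4891 TPM, again without overlap, with a log2 change of 1.07 ± 0.12 (SE, FDR = 3.31e-09). Kyat1, a kynurenine aminotransferase, rose by 0.82 ± 0.13 (SE, FDR = 1.18e-06).

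The largest falls were Hnmt, which methylates histamine, at -1.73 ± 0.16 (SE, FDR = 4.02e-11), Bhmt, which remethylates homocysteine with betaine, at -1.31 ± 0.28 (SE, FDR = 1.48e-04), and Ddo, D-aspartate oxidase, at -1.26 ± 0.13 (SE, FDR = 1.35e-10). With semaglutide at 100 nmol/kg, Acmsd differed from vehicle by 1.07 ± 0.28 (SE, FDR = 0.00157), Mat1a by 0.35 ± 0.12 (SE, FDR = 0.0182) and Kyat1 by 0.73 ± 0.13 (SE, FDR = 1.87e-05). In the same group Hnmt differed by -1.43 ± 0.16 (SE, FDR = 1.01e-08), Bhmt by -0.53 ± 0.29 (SE, FDR = 0.125) and Ddo by -0.68 ± 0.12 (SE, FDR = 1.38e-05).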
